A study of Homo sapiens with 95 samples.

Results

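Benzo[a]pyrene (BaP) was compared with its dimethyl sulfoxide (DMSO) vehicle in AALE cells carrying a CRISPR knockout of FAT1, using the 3 FAT1 wells exposed to BaP at 173 µM and the 3 FAT1 wells given DMSO, which are 6 of the 95 wells of the series. AALE is an immortalised line of human bronchial epithelial cells, and the whole series profiled engineered AALE populations after exposure to tobacco-related chemicals, each well giving 1 counted library of 3′ transcript ends. The FAT1 population came from cells that received Cas9 and a guide against FAT1, and the labels say neither whether it is a clone or a pool nor how long the cells were exposed. Cells were seeded in 24-well plates and given 24 h to become confluent before a compound was added. Of the other populations used below, GFP cells received the Cas9-EGFP plasmid without a guide, and NRF2, NRG1 and PIK3CA cells overexpress the named gene. Each was grown with BaP at 173 µM or DMSO, in 3 wells per group. FAT1 cells were also exposed to cigarette smoke condensate (CSC) at 24 µg/ml or to the nicotine-derived nitrosamine NNK at 490 µM.

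BaP is a polycyclic aromatic hydrocarbon of tobacco smoke and a ligand of the aryl hydrocarbon receptor (AHR). The bound receptor leaves its HSP90 chaperone complex in the cytoplasm, pairs with ARNT in the nucleus and binds sites with the core GCGTG, switching on the cytochrome P450 genes CYP1A1 and CYP1B1, whose enzymes oxidise BaP to products that can bind DNA. Oxidised metabolites can also release the transcription factor NRF2 from KEAP1, which raises genes of redox defence and conjugation. FAT1 is a very large protocadherin linked to cell adhesion, the actin cytoskeleton and Hippo signalling, and it is often mutated in squamous cancers.

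The 6 FAT1 libraries held 1273724 to 1765693 counts, with 48.9 to 51.6% of the 23895 listed genes detected in each. CPM is a count scaled to a common library total. The markers of airway basal cells were all tested (7 of 7, summed level 386 to 437 CPM in DMSO wells and 331 to 401 in BaP wells). Markers of ciliated and secretory airway cells had no count in any well, and those of leukocytes, fibroblasts, endothelium and alveolar cells summed to at most 32 counts in a well, with PTPRC, the defining leukocyte gene, at 0. Levels below are CPM after scaling library totals by the trimmed mean of M-values (TMM), folds come from the log2 difference fitted by limma-voom over 11131 tested genes with a mean count above 1, and a gene is said to have risen or fallen where its Benjamini-Hochberg adjusted p was under 0.05 in that two-sided test. The study calls the wells of a group biological replicates, but neither the labels nor its methods say that they came from separate cultures, so the p-values measure the spread between wells, which may in part be technical. A 3 against 3 exact permutation test of a single gene cannot go below p = 0.1. DMSO wells lay in plate row B and BaP wells in row F, so the chemical and the plate row cannot be told apart.

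The targeted transcript was low in the knockout population. FAT1 (GRCh37 chr4:187508948-187647876, minus strand) had 0, 6 and 3 counts in FAT1 DMSO wells and 4, 0 and 1 in FAT1 BaP wells, against 9, 14 and 8 in GFP DMSO wells and 7, 4 and 10 in GFP BaP wells. Over both chemicals FAT1 was lower in FAT1 than in GFP cells by a log2 difference of -2.46 (SE 0.48, limma-voom adjusted p = 5.92e-05), in a comparison in which 22.1% of 11107 genes were called. A 3′ tag need not fall in the edited part of the gene, so the count checks the label only indirectly. Within FAT1 cells the FAT1 difference under BaP was -0.30 (SE 0.94, limma-voom adjusted p = 0.941), at 14 counts in all 6 wells.

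BaP raised 100 genes (0.898% of those tested) and lowered 90 (0.809%), together 1.71% of the 11131, and 1266 genes had an unadjusted p under 0.05. Listed AHR targets, NRF2 targets and immediate early genes were among those that rose. Mitotic and basal adhesion genes and the caveolar gene CAV1 were among those that fell. The median log2 difference over all tested genes was 0.003. In 16.4% of tested genes the 3 BaP wells did not overlap the 3 DMSO wells, 8.26% with BaP higher and 8.11% with BaP lower. Of the called genes, 26 that rose and 13 that fell were called under each of 19 alternative settings, while 14 and 9 were called under fewer than 10 of them. The count fell to 101 without the second DMSO well, to 94 without the second BaP well and to 124 without the third BaP well.

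The CYP1 genes at the head of the AHR target list had very few counts before exposure and gave the largest differences among called genes. CYP1A1, which hydroxylates polycyclic hydrocarbons, had 0, 1.69 and 3.90 CPM in the 3 DMSO wells and 94.2, 84.7 and 88.3 CPM in the 3 BaP wells. The groups stood far apart, at means of 1.86 ± 1.96 and 89.1 ± 4.80 CPM (SD, n = 3). The fold fitted by limma-voom on the log scale, which is not the ratio of these means and depends on a well at 0, was 70.0 (log2 6.13, SE 0.59, adjusted p = 1.36e-10). CYP1B1, the related enzyme that forms BaP diol epoxides in many extrahepatic tissues, had 5.50, 5.08 and 6.24 CPM in DMSO wells and 113, 108 and 114.3 in BaP wells. This was a fold of 19.2 (log2 4.26, SE 0.27, limma-voom adjusted p = 5.81e-17), with little spread within either group. TIPARP, an ADP-ribosyltransferase that feeds back on AHR, had 12.2, 10.2 and 14.8 CPM in DMSO wells and 39.8, 34.5 and 31.9 in BaP wells, a fold of 2.88 (limma-voom adjusted p = 7.86e-06). These genes lie at chr15:75011883-75017877 on the minus strand (CYP1A1), chr2:38294116-38337044 on the minus strand (CYP1B1) and chr3:156391024-156424559 on the plus strand (TIPARP), in GRCh37.

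The 250 bases upstream of the start of CYP1A1 and TIPARP, from RefSeq on GRCh38.p14, are shown to place the GCGTG core beside these values. CYP1B1 had no promoter entry. Capitals mark each GCGTG on the strand shown or, as CACGC, on the opposite strand, and each sequence runs in the direction of its gene.
CYP1A1, chr15:74725529-74725778, minus strand: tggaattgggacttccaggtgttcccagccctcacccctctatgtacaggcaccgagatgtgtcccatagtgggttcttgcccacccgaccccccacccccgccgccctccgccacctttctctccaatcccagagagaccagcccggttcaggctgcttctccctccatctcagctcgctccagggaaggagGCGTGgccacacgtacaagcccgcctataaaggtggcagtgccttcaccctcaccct
TIPARP, chr3:156674340-156674589, plus strand: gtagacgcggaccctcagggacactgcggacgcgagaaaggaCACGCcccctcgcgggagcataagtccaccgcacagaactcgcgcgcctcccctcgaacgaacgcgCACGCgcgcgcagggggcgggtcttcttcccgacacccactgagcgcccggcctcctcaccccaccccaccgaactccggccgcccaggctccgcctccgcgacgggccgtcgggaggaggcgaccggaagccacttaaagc
The CYP1A1 window held the core once, beginning 57 bases before the start, and the TIPARP window held it at 208 and 142 bases before the start, both on the opposite strand. The core occurred on either strand in 6 of the 8 listed AHR targets with a promoter in the table (75%), against 31.9% of all 27305 promoters and 46.3% of the 9032 promoters of tested genes. Over all called genes the share was 48.9% of the 88 promoters of genes that rose and 48.8% of the 80 of genes that fell, so neither stood out by this motif. A match is a run of letters and not evidence of binding.

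Of 10 tested AHR targets, 5 rose and none fell, against 0.898% of all genes in that direction; 8 had every BaP well above every DMSO well, against 8.26% of all genes, and the median log2 difference was 1.38. With single wells left out, 4 to 6 rose. NQO1, a quinone reductase that is a target of both AHR and NRF2, had 72.8, 73.4 and 67.1 CPM in DMSO wells and 160.1, 158 and 189 in BaP wells, a fold of 2.36 (limma-voom adjusted p = 2.50e-11). NFE2L2, which encodes NRF2 itself, went from 22.6, 32.2 and 31.2 CPM to 47.5, 54.1 and 41.6 CPM (log2 0.74, SE 0.18, limma-voom adjusted p = 0.0122). Its call was lost without the first DMSO well (limma-voom adjusted p = 0.13) or the second BaP well (0.098). The 5 that did not pass the test included ALDH3A1, an aldehyde dehydrogenase, at 0, 1.13 and 0.78 CPM in DMSO wells and 3.06, 2.35 and 5.196 in BaP wells, and AHRR, the receptor's repressor, which had only 7 counts in the 6 wells (log2 1.94, SE 1.00, limma-voom adjusted p = 0.461). EREG and SLC7A5 had positive differences of 1.11 and 0.39 and CYP2S1 one of 0.37, none past the threshold. CYP1A2 and UGT1A6 had 4 and 3 counts in all and were not tested.

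Of the receptor and its partners, 1 of 10 tested genes fell and none rose, against 0.809% and 0.898% of all genes. The other 9 did not pass, as was so for most tested genes. AHR itself had a difference of 0.00 (SE 0.31, limma-voom adjusted p = 0.997), and its partner ARNT had 0.08. HSP90AA1, the inducible HSP90 that holds the unbound receptor, was the 1 that passed. It fell by 0.23 on the log2 scale (limma-voom adjusted p = 0.00305), and the call was lost without the second DMSO well (limma-voom adjusted p = 0.106) or the second BaP well (0.0629). HSP90AB1, XPO1 and PTGES3 were at -0.11, -0.17 and -0.03, and none passed.

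**Figure D1:**
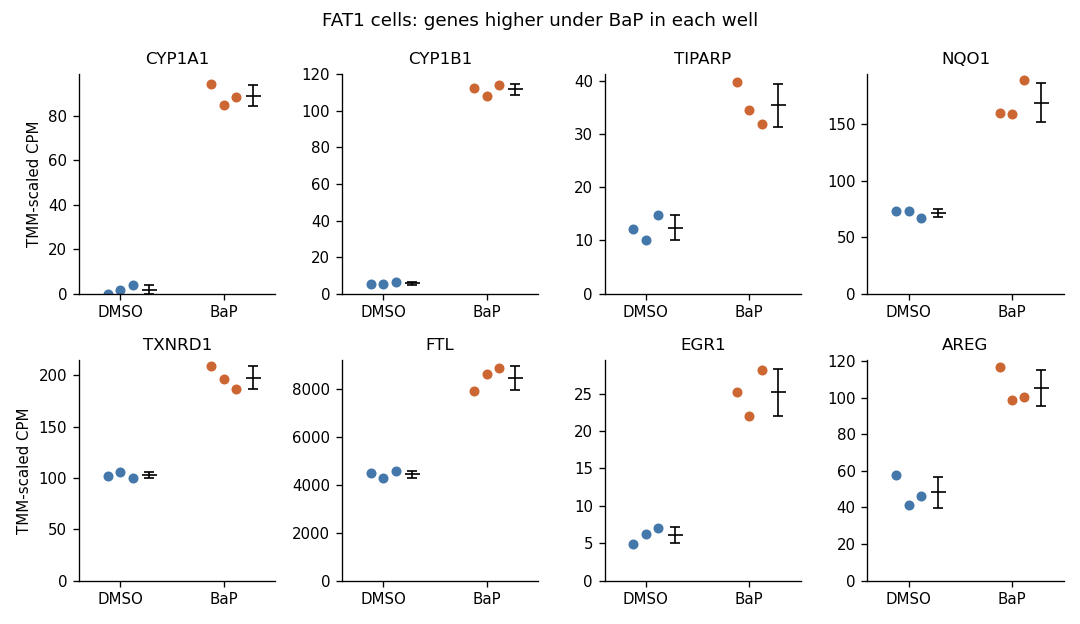
TMM-scaled CPM of 8 genes in each FAT1 well, DMSO beside BaP, with points for wells and bars for the mean ± SD of 3 wells. In each panel the 3 BaP wells lie above the 3 DMSO wells, from 84.7 to 94.2 against 0 to 3.90 CPM for CYP1A1.

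Of 34 tested NRF2 target genes, 12 rose and none fell, against 0.898% of all tested genes that rose, and the median difference was 0.38. The wells did not overlap for 18 genes, against 16.4% of all tested genes, and 30 differences were positive. FTL, the ferritin light chain that stores iron, had 4504, 4269.6 and 4561 CPM in DMSO wells and 7919.8, 8623 and 8876 in BaP wells. It was among the most abundant transcripts, and its fold of 1.91 carried the smallest limma-voom adjusted p of the list, 8.75e-27. TXNRD1, thioredoxin reductase, had 102, 106 and 99.8 CPM in DMSO wells and 209, 197 and 187 in BaP wells (log2 0.94, SE 0.10, limma-voom adjusted p = 2.54e-09). Besides NQO1, the other members that passed were PIR (1.17), SRXN1 (1.51), AKR1C3 (1.43), GPX2 (1.41), SQSTM1 (0.74), FTH1 (0.36), MGST1 (0.30), PRDX1 (0.26) and TXN (0.20), in log2 units. PIR, SRXN1, AKR1C3, GPX2, SQSTM1, FTH1, PRDX1 and TXN were named after their values were seen, to account for the list. The count of 12 became 9 to 11 with single wells left out, the SQSTM1 call being lost whichever well was left out and the SRXN1 call without the second DMSO well (limma-voom adjusted p = 0.0567). The GPX2 call was lost without the first DMSO well, the second DMSO well or the third BaP well, at limma-voom adjusted p from 0.171 to 0.225. The count became 8 when trends over transcript length and GC content were removed.

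The window before TXNRD1 is shown because it holds a match to TGACNNNGC, the core of the antioxidant response element that NRF2 binds with small MAF proteins, in capitals and 99 bases before the start. NQO1 and SRXN1 were looked up as well and are not shown, having no match or no promoter entry.
TXNRD1, chr12:104215529-104215778, plus strand: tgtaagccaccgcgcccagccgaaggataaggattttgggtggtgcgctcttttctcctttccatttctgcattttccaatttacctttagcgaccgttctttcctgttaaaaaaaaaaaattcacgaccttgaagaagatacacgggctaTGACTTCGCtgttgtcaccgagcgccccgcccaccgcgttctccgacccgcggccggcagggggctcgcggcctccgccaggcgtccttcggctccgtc
On either strand, that motif occurred in 7 of the 26 listed NRF2 targets with a promoter (26.9%), against 12.2% of the promoters of tested genes and 11.4% of those of genes that rose.

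Of 31 tested genes for conjugation and transport, 4 rose and none fell, against 0.898% of all genes that rose, with a median of 0.30. ALDH1A3, which oxidises retinaldehyde, had 9.79, 9.03 and 2.34 CPM in DMSO wells and 25.3, 18.0 and 23.8 in BaP wells (log2 1.73, SE 0.33, limma-voom adjusted p = 0.000846). DHRS3, a retinaldehyde reductase outside the lists, had 18.3, 9.03 and 14.8 CPM in DMSO wells and 42.9, 51.8 and 44.5 in BaP wells (log2 1.78, SE 0.22, limma-voom adjusted p = 1.65e-07). The glutathione transferase GSTM3 and the microsomal MGST1 rose by less, 0.42 and 0.30 in log2. GSTP1, named after its value was seen, rose by 0.25, a call lost without the second DMSO well, the second BaP well or the third BaP well and with length and GC trends removed (log2 0.06).

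Immediate early genes and feedback genes of the ERK pathway were the other list with a high median, 0.79 over 27 tested genes, of which 4 rose and none fell, against 0.898% of all genes that rose. EGR1, a zinc finger factor rapidly induced by mitogen signals, had 4.89, 6.21 and 7.02 CPM in DMSO wells and 25.3, 21.96 and 28.2 in BaP wells (log2 2.03, SE 0.29, limma-voom adjusted p = 5.42e-06). AREG, an EGFR ligand, went from 57.5, 41.2 and 46.0 CPM to 116, 98.8 and 100.2 CPM (log2 1.13, SE 0.14, limma-voom adjusted p = 6.62e-08). DUSP1, the phosphatase that dampens MAP kinases, had 18.3, 14.7 and 7.80 CPM in DMSO wells and 46.7, 44.7 and 28.2 in BaP wells (limma-voom adjusted p = 4.81e-05). No overlap of wells was a condition for naming these 3 genes, so it adds nothing to their calls. MYC, named after its value was seen, rose from 6.73, 7.90 and 0.78 CPM to 12.3, 13.3 and 12.6 CPM, and its call was lost with any single well left out except the first BaP well; without the third DMSO well its log2 difference was 0.78 (limma-voom adjusted p = 0.374). FOS stood at 3.67, 3.39 and 0.78 CPM against 11.5, 3.92 and 19.3 CPM and did not pass (log2 1.87, limma-voom adjusted p = 0.0554).

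The DNA damage lists held few calls at this depth. Over all tested genes 0.898% rose and 0.809% fell, the shares to set beside the counts in this paragraph. Of 27 tested p53 targets 1 was called, GADD45A, a growth arrest gene, at 9.17, 6.21 and 5.46 CPM in DMSO wells and 15.3, 16.5 and 16.3 in BaP wells (log2 1.19, SE 0.30, limma-voom adjusted p = 0.0223); the call was lost without the second DMSO well, the third DMSO well, the second BaP well or the third BaP well, at limma-voom adjusted p from 0.0571 to 0.160. CDKN1A, the p53 target that inhibits cyclin-dependent kinases, was at 0.23 (limma-voom adjusted p = 0.775) and MDM2 at -0.10 (0.86). None of the 43 tested genes of the DNA repair list passed, at a median of -0.02. Outside that list, PRKDC, RAD51AP1 and RFC1, which also act in repair and were named after their values were seen, fell. Their log2 differences were -0.38, -0.45 and -0.32, called in 14, 10 and 14 of 19 alternative settings and in none of the 3 cases by DESeq2. IL1A, an alarmin cytokine, was the 1 of 15 cytokine genes to rise (log2 1.70, SE 0.35, limma-voom adjusted p = 0.00258), from 9.79, 2.82 and 3.90 CPM to 16.1, 16.5 and 16.3 CPM, and the call was lost without the second DMSO well (limma-voom adjusted p = 0.10). Proteasome genes had 4 higher of 34 tested, against 0.898% of all genes, and 31 positive differences at a median of 0.15; the count was 2 to 11 over the alternative settings. The catalytic subunit PSMB5 had 296, 291 and 307 CPM in DMSO wells and 419, 428 and 423 in BaP wells, a tight rise of 0.51 in log2 (limma-voom adjusted p = 5.25e-06).

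Genes of mitosis and replication were lower in BaP wells. Of 40 tested cell cycle genes, 5 fell and none rose, against 0.809% of all genes that fell; 4 of the 40 differences were positive and the median was -0.19. MKI67, the proliferation antigen Ki-67, had 91.7, 122 and 103 CPM in DMSO wells and 65.9, 56.5 and 57.2 in BaP wells (log2 -0.82, SE 0.13, limma-voom adjusted p = 5.06e-05). TOP2A, the topoisomerase that untangles chromosomes, had 329.7, 374 and 299.5 CPM in DMSO wells and 219.9, 234 and 239.7 in BaP wells (log2 -0.54, SE 0.09, limma-voom adjusted p = 3.87e-05). CENPF, a kinetochore protein of G2 and M phase, went from 404, 387 and 406 CPM to 304, 268 and 262 CPM (log2 -0.52, SE 0.08, limma-voom adjusted p = 9.72e-06). No overlap of wells was a condition for naming these genes. CKS2, a subunit of cyclin-dependent kinases named after its value was seen, fell by 0.20 on the log2 scale, a call that edgeR and DESeq2 did not make and that was lost in 4 of 6 fits with a well left out. Outside the list, ANLN, a scaffold of the cytokinetic ring, had 189, 221 and 219 CPM in DMSO wells and 139, 155 and 134 in BaP wells. Its log2 difference was -0.55 (SE 0.10, limma-voom adjusted p = 0.000207). NUSAP1, which binds spindle microtubules, had 525, 576 and 583 CPM in DMSO wells and 421, 427 and 431 in BaP wells (log2 -0.39, SE 0.07, limma-voom adjusted p = 0.000207). PCNA, CDK1 and CCNB1, core genes of replication and mitotic entry, were at -0.02, -0.14 and -0.09 and did not pass. The list count ranged from 3 without the second DMSO well to 8 with other single wells left out, and was 9 when trends over transcript length and GC content were removed. In bulk wells, fewer cells of a type and less RNA per cell cannot be told apart.

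The windows before MKI67, TOP2A and ANLN are shown because each holds TTTGAA, the core of the cell cycle homology region through which many genes of G2 and M phase are repressed in resting cells. CENPF and NUSAP1 were looked up as well and are not shown, having no match or no promoter entry. Capitals mark TTTGAA on the strand shown or, as TTCAAA, on the opposite strand.
MKI67, chr10:128126424-128126673, minus strand: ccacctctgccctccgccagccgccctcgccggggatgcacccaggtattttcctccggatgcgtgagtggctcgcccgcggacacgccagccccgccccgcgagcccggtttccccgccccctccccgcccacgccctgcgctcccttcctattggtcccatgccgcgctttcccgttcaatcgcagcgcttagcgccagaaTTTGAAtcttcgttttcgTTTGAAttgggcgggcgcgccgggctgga
TOP2A, chr17:40417897-40418146, minus strand: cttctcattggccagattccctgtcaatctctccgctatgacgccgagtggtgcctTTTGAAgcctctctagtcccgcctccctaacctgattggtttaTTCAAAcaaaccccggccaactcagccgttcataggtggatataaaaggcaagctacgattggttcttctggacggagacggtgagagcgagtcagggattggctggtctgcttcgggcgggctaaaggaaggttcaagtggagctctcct
ANLN, chr7:36389612-36389861, plus strand: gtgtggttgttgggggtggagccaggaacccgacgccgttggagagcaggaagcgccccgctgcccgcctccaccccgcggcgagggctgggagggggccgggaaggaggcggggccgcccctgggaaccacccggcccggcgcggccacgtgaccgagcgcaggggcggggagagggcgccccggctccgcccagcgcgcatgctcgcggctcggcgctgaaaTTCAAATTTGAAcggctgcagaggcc
In MKI67 the matches began 47 and 29 bases before the start, in TOP2A 194 and 151 bases and in ANLN 26 and 20 bases. TTTGAA was found in 10 of the 29 listed cell cycle genes with a promoter (34.5%) and in 14 of the 80 promoters of genes that fell (17.5%), against 8.74% of the promoters of tested genes and 13.6% of all promoters.

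**Figure D2:**
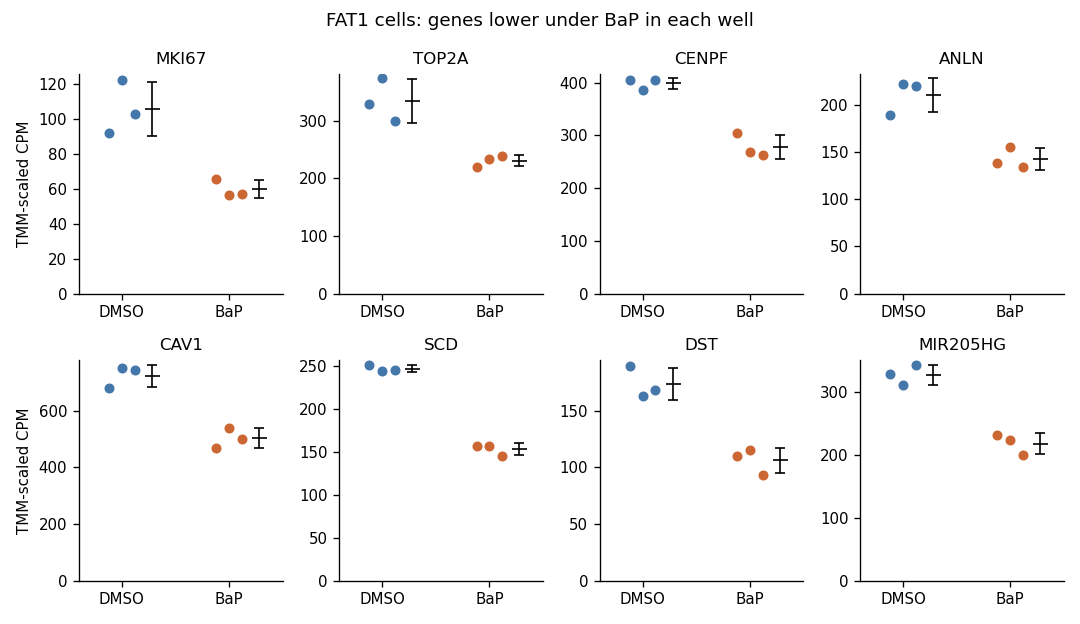
TMM-scaled CPM of 8 genes in each FAT1 well, DMSO beside BaP, with points for wells and bars for the mean ± SD of 3 wells. In each panel the 3 BaP wells lie below the 3 DMSO wells, from 56.5 to 65.9 against 91.7 to 122 CPM for MKI67.

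Of 25 tested genes of basal epithelial attachment, 4 fell and none rose, against 0.809% of all genes that fell, with a median of -0.27. DST, whose epithelial form (BP230) ties keratin to hemidesmosomes, had 189.6, 163 and 168 CPM in DMSO wells and 109.6, 115 and 93.5 in BaP wells (log2 -0.71, SE 0.11, limma-voom adjusted p = 8.94e-06). DSP, the desmosomal plakin, fell by 0.56 and LAMA3, a chain of laminin-332, fell by 0.71 on the log2 scale. Both calls were lost without the third BaP well (limma-voom adjusted p = 0.0562 and 0.0602), and that of LAMA3 also without the second DMSO well (0.150). S100A2 was the other gene that fell, named after its value was seen (log2 -0.18), and its call was lost without the second DMSO well, the third DMSO well or the second BaP well. The basal keratins KRT5 and KRT14 stood at -0.37 and -1.03 and did not pass, nor did the basal transcription factor TP63 at -0.11. The count of 4 became 2 without the second DMSO well, 2 without the third BaP well and 1 with DESeq2.

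Single genes of caveolae, lipid synthesis and Hippo signalling fell within lists most of whose members did not pass the test. CAV1, the main coat protein of caveolae, had 679.5, 750.1 and 743 CPM in DMSO wells and 469, 539.6 and 499.5 in BaP wells (log2 -0.53, SE 0.07, limma-voom adjusted p = 3.01e-07). Of 31 tested actin and caveolar genes, CAV1 was 1 of 4 that fell and 1 rose, against 0.809% and 0.898% of all genes. In that list the wells of 12 genes did not overlap, against 16.4% of all genes. SCD, which desaturates fatty acids, had 251, 244 and 245 CPM in DMSO wells and 157, 156 and 145 in BaP wells (log2 -0.69, SE 0.09, limma-voom adjusted p = 4.65e-07), the only call among 19 fatty acid genes. STK3 (MST2), the kinase at the head of the Hippo cascade, had 29.97, 30.5 and 31.98 CPM in DMSO wells and 15.3, 17.3 and 11.9 in BaP wells (log2 -1.05, SE 0.22, limma-voom adjusted p = 0.00359). It was the only call among 29 tested FAT1, Hippo and YAP genes, whose median was -0.19. The YAP target genes CTGF and CYR61 were at 1.18 and 0.49 and did not pass. MIR205HG, the host transcript of miR-205, an epithelial microRNA, went from 329, 312 and 343 CPM to 232, 224 and 199.7 CPM (log2 -0.58, SE 0.08, limma-voom adjusted p = 4.35e-06).

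Of 82 tested ribosomal protein genes, chosen by symbol, 11 rose and 2 fell, against 0.898% and 0.809% of all genes. Differences were positive for 54 of them, at a median of 0.03. RPS23 rose by 0.38 and RPS4X by 0.29 in log2, and RPS21 and RPL7A by 0.35 and 0.26. With robust moderation in limma RPS23 and RPS21 were not called (adjusted p = 0.205 and 0.316), and RPL7A was at 0.08 with length and GC trends removed (limma-voom adjusted p = 0.244). Near-identical processed copies of such genes can take a share of their reads, so these values are uncertain. None of 62 tested nuclear genes of oxidative phosphorylation, 6 metallothionein genes or 23 mesenchymal genes passed, with medians of 0.05, 0.23 and -0.29.

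Among called genes with a mean count of at least 10, those with the largest falls were of low abundance. LCLAT1, an acyltransferase of cardiolipin metabolism, had 14.1, 18.1 and 11.7 CPM in DMSO wells and 2.30, 8.63 and 4.45 in BaP wells (log2 -1.63, SE 0.38, limma-voom adjusted p = 0.0104). POLA1, the catalytic subunit of DNA polymerase alpha, had 12.2, 10.7 and 15.6 CPM in DMSO wells and 1.53, 6.27 and 4.45 in BaP wells (log2 -1.70, SE 0.41, limma-voom adjusted p = 0.0157), a call that was lost without the first BaP well (limma-voom adjusted p = 0.158). The LCLAT1 call was lost without the second DMSO well (0.0670) or the first BaP well (0.103). No overlap of wells was a condition for naming LCLAT1 and POLA1. The homeobox gene CUX1, PALMD and the zinc finger gene ZNF555 fell by 1.20, 1.20 and 1.35 on the log2 scale, but with single wells left out CUX1 was called in 3 of 6 fits, PALMD in 1 and ZNF555 in 1. Of 27 tested glycolysis and hypoxia genes, 2 rose, against 0.898% of all genes, and 1 fell, against 0.809%. TPI1 rose by 0.34 and ENO1 by 0.18, and LDHA fell by 0.26 on the log2 scale. Neither of the 2 rises was called with length and GC trends removed. ENO1 was also lost in 5 of 6 fits with a well left out, and LDHA without the second DMSO well or the second BaP well.

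**Figure D3:**
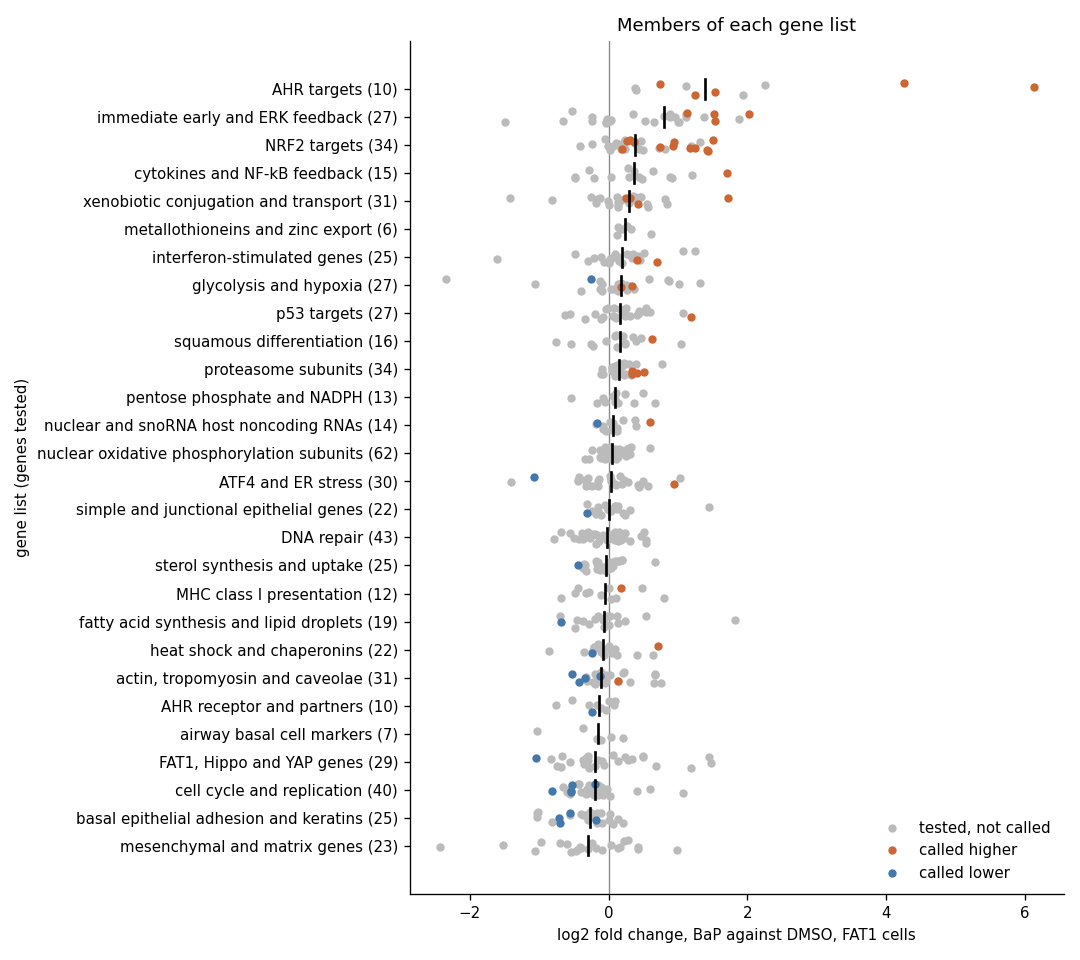
Log2 difference of BaP against DMSO for each tested gene of the lists with at least 5 tested genes, with genes that rose in orange, genes that fell in blue, the rest in grey and the list median as a black line. The medians of the AHR targets and the immediate early genes, 1.38 and 0.79, lie farthest above 0.

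Transcript length and base composition moved with the calls. The median annotated transcript length was 1888.5 bases for genes that rose, 4496.5 for genes that fell and 3588 for the rest, and the median GC content was 48.8, 41.5 and 46.6%. The well barcodes of all 3 DMSO wells held 1 G or C base and those of all 3 BaP wells held 5. With trends over length and GC content removed, 161 genes were called, 70 higher and 91 lower, and 119 of the 190 remained. The calls of 8 NRF2 targets and 9 lower cell cycle genes given above come from that fit. The difference of MALAT1, a nuclear noncoding RNA that had fallen by 0.16 in limma-voom, was then 0.00, and edgeR, DESeq2 and limma with robust moderation did not call it (adjusted p = 0.159, 0.209 and 0.105). The part of length, GC content or barcode in the other results was not tested beyond that.

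In the other populations, each against its own DMSO wells and with chemicals likewise divided by plate row, BaP called 1.52% of tested genes in GFP cells (1.12% higher, 0.393% lower), 2.03% in NRF2 cells (1.22% and 0.81%), 0.886% in NRG1 cells (0.492% and 0.394%) and 1.16% in PIK3CA cells (0.854% and 0.306%). CYP1A1 rose in each, by 4.53, 4.47, 3.92 and 2.62 in log2 in that order, against 6.13 in FAT1 cells, and CYP1B1 by 3.40, 3.19, 3.15 and 2.84 against 4.26. On a scale shared by 82 wells, CYP1A1 under BaP stood at 92.9 ± 4.65 CPM in FAT1, 62.5 ± 14.8 in NRF2, 43.1 ± 8.28 in GFP, 18.9 ± 4.25 in NRG1 and 14.6 ± 3.79 in PIK3CA cells (SD, n = 3). The FAT1 wells did not overlap those of these other 4 populations, whereas NRF2 and GFP wells overlapped, as did NRG1 and PIK3CA wells. The share of all genes placed this way was not counted. The response of CYP1A1 itself differed between FAT1 and GFP cells by 1.55 (SE 0.80, limma-voom adjusted p = 0.763) and from the mean of the other 4 populations by 2.22 (SE 0.65, limma-voom adjusted p = 0.408), and that of CYP1B1 by 0.85 (SE 0.40, adjusted p = 0.733) and 1.13 (SE 0.33, adjusted p = 0.408). Neither gene passed, and a p above the threshold does not show that the responses are alike. NQO1 started lower in FAT1 cells, at 73.7 CPM against 174 in GFP cells, and reached 176 CPM against 344 under BaP. The AHR target list had 4, 4, 6 and 4 higher genes in GFP, NRF2, NRG1 and PIK3CA cells, the NRF2 target list 12, 12, 10 and 9, and the cell cycle list had 3, 8, 6 and 7 lower genes.

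The genes called in FAT1 cells were then followed in the other populations, whose wells are separate. Of 99 genes that rose in FAT1 cells and were tested in GFP cells, 93 had a positive difference in GFP cells, and 69 of 90 that fell had a negative one, against 57.6% with the same sign among all genes tested in both. The 49 that rose in both are 49.5% of the FAT1 genes and 40.8% of the 120 GFP genes. The 13 that fell in both come from 90 in FAT1 and 42 in GFP cells. Across all 4 other populations, 24 genes that rose in FAT1 cells rose in every one and 36 in none, while 4 that fell did so in every one and 52 in none. Passing in FAT1 cells and not in another population is not a tested difference.

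**Figure D4:**
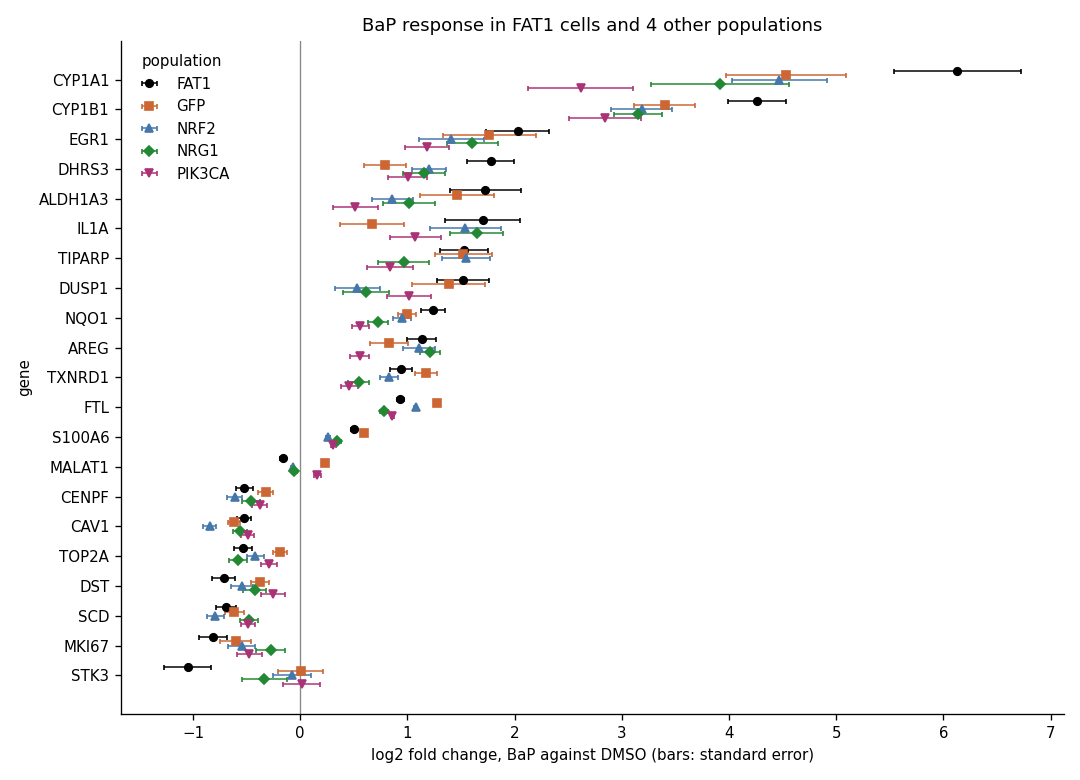
Log2 difference of BaP against DMSO ± SE (n = 3 wells per group) for 21 genes in FAT1, GFP, NRF2, NRG1 and PIK3CA cells. CYP1A1 ranges from 2.62 in PIK3CA to 6.13 in FAT1 cells, and CYP1B1 from 2.84 to 4.26.

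Tested directly, the BaP response differed between FAT1 and GFP cells for 6 of 11107 genes (0.054%), 3 with the larger log2 difference in FAT1 cells (0.027%) and 3 with the smaller (0.027%), while 728 had an unadjusted p under 0.05. FTL rose less in FAT1 than in GFP cells, by -0.35 in log2 (SE 0.04, limma-voom adjusted p = 2.36e-07), from 4352 to 4689 CPM in DMSO wells to 8084 to 9018 in BaP wells, against 3319 to 3798 and 8694 to 9003 in GFP cells. The FTL rise was 0.93 in FAT1, 1.28 in GFP, 1.08 in NRF2, 0.78 in NRG1 and 0.86 in PIK3CA cells. From the mean of the 4 other populations FAT1 cells differed by -0.05 (limma-voom adjusted p = 0.935). NUSAP1 fell in FAT1 cells and stood at 0.00 in GFP cells (difference -0.40, SE 0.09, limma-voom adjusted p = 0.0359), where its 3 DMSO wells held 763.3 to 801.5 CPM and its 3 BaP wells 772.2 to 807.2. NUSAP1 also fell in NRF2 (-0.32, limma-voom adjusted p = 2.32e-05) and NRG1 cells (-0.46, 2.85e-05), and was not called in PIK3CA cells (-0.09). From the mean of the 4 other populations FAT1 cells differed in it by -0.16 (limma-voom adjusted p = 0.756). MALAT1 fell in FAT1 cells and rose in GFP cells (difference -0.41, SE 0.03, limma-voom adjusted p = 2.62e-16). The responses of the ribosomal protein genes RPL7A and RPS21 were higher in FAT1 cells by 0.23 and 0.29, and that of MT2A, a metallothionein, by 0.29 (limma-voom adjusted p = 0.0359). Of these 6, edgeR's quasi-likelihood test called MALAT1, FTL and NUSAP1, DESeq2 called MALAT1 and limma with robust moderation called RPL7A (FTL adjusted p = 0.00930, 0.0830 and 0.407 in that order of tools). Against the mean of the 4 other populations 3 of 11306 genes differed (0.0265%), RPL7A (0.25) and RPS21 (0.28) upward (0.0177%) and MALAT1 (-0.22) downward (0.00884%). EdgeR's quasi-likelihood test, DESeq2 and limma with robust moderation called none of these 3, at 678, 343 and 697 genes with an unadjusted p under 0.05. The differences of STK3 against GFP cells (-1.06, limma-voom adjusted p = 0.277) and of DHRS3 (0.97, adjusted p = 0.368) did not pass.

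**Figure D5:**
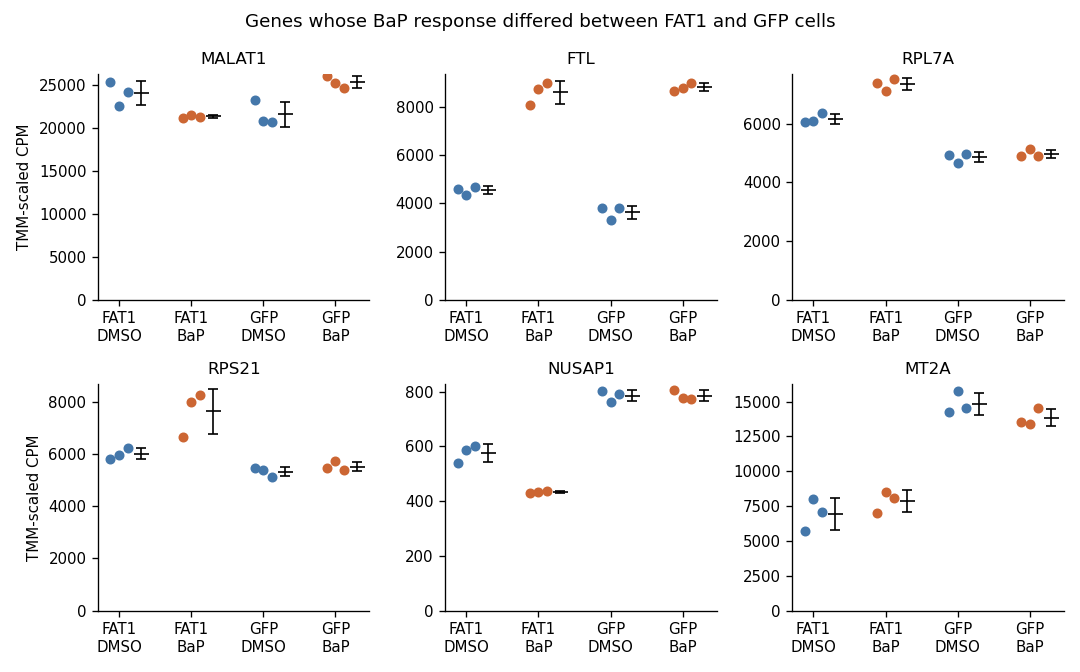
TMM-scaled CPM in each of 12 wells for the 6 genes whose response to BaP differed between FAT1 and GFP cells. MALAT1 is lower under BaP in FAT1 and higher in GFP wells, and NUSAP1 is lower under BaP in FAT1 wells and overlaps between chemicals in GFP wells.

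FAT1 cells met the other tobacco chemicals with values given here side by side, because these comparisons share the DMSO wells of the BaP comparison. On the scale shared by 82 wells, CYP1A1 was at 1.94 ± 2.04 CPM in DMSO, 78.0 ± 6.07 in CSC, 92.9 ± 4.65 in BaP and 7.41 ± 0.449 in NNK wells (SD, n = 3). CYP1B1 was at 5.82 ± 0.635, 136 ± 16.5, 117 ± 3.45 and 15.1 ± 5.50 CPM in the same order. Both were high under smoke condensate and BaP and lower under NNK. CSC called 0.457% of tested genes (0.29% higher, 0.167% lower) and NNK 3.22% (2.05% and 1.17%). The AHR target list had 5 higher genes under CSC and 3 under NNK, and the NRF2 target list 9 and 6. The immediate early list had 4 higher genes under CSC and 4 under NNK, and the cell cycle list 3 and 4 lower. Under NNK the basal attachment list had 4 lower genes and 1 higher, and the proteasome list 9 higher. EGR1 differed from DMSO by 2.21 under NNK and 2.03 under BaP, and MKI67 by -1.08 and -0.82 (log2). Calls in these lists were thus also made under CSC or NNK. They rest on the same DMSO wells, so whether the changes are particular to BaP was not tested.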

How the data were processed

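The deposited files hold 1 table per well of whole-number counts per gene symbol (23895 symbols). Per the labels and the study's methods the authors aligned 3′ digital gene expression reads with BWA 0.7.10 to hg19 transcripts and counted unique molecular identifiers per gene and well, so that PCR copies are counted once. The 82 wells with 1-digit replicate numbers were used, and 13 with other numbers were not used here.

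Counts were scaled by TMM (edgeR 4.0.16) and tested by limma-voom (limma 3.58.1, R 4.3.3) in the 6 FAT1 wells under BaP or DMSO, after dropping genes with a mean count of at most 1, two-sided, with Benjamini-Hochberg adjusted p under 0.05. Differences between populations were interaction terms in fits of 12 or 30 wells. Alternatives were edgeR's quasi-likelihood test, DESeq2 1.42.0, other scalings, filters and moderation, thinned counts, a replicate block, other sets of wells and each well left out. Removal of length and GC trends was chosen after seeing the data. The fits were also run on simulated counts with known changes, which held no effect of plate row, transcript length or GC content. Transcript lengths and GRCh37 positions came from GENCODE (93.9% of symbols matched), promoters from RefSeq on GRCh38.p14.

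The wells, gene lists and tests were chosen with earlier results of these data known. Genes named were FAT1, CYP1A1, CYP1B1, the tested AHR targets and AHR partners, the 10 higher and 10 lower called genes of smallest adjusted p with no overlap of wells, the 5 of largest change each way with a mean count of at least 10, up to 3 each way per list and up to 5 each way per test of a difference. No overlap of wells was also required of the genes of largest change and of those taken per list. Other genes named are marked in the text. Not every gene chosen this way is named, and some results are not reported here.

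Deviations of same-numbered DMSO and BaP wells, which share a plate column, correlated weakly, at 0.088, 0.029 and 0.018. Wells were not paired in the main fit, and a fit with a replicate block is given below.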

Additional observations from a re-analysis of the deposited data

Results flagged for a closer look

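The 9 results here stood out because the effect of BaP differed between FAT1 cells and other populations by a test of the difference itself. Against GFP cells the log2 differences in response were -0.41 for MALAT1, -0.35 for FTL, 0.23 for RPL7A, 0.29 for RPS21, -0.40 for NUSAP1 and 0.29 for MT2A. Against the mean of the GFP, NRF2, NRG1 and PIK3CA responses they were 0.25 for RPL7A, 0.28 for RPS21 and -0.22 for MALAT1. MALAT1 moved in opposite directions in limma-voom, by -0.16 in FAT1 and 0.23 in GFP cells, and by -0.07, -0.06 and 0.16 in NRF2, NRG1 and PIK3CA cells. The MALAT1 fall in FAT1 cells was not called by edgeR, DESeq2 or limma with robust moderation (adjusted p = 0.159, 0.209 and 0.105) or with all wells fitted, and was 0.00 with length and GC trends removed. RPL7A rose by 0.26 in FAT1 cells and stood at 0.03 in GFP cells. FTL and NUSAP1 did not pass against the mean of the other populations (limma-voom adjusted p = 0.935 and 0.756). With 6 genes among 11107 tested against GFP cells, DESeq2 called 1 and limma with robust moderation 1, and edgeR's quasi-likelihood test called 5, of which 3 (MALAT1, FTL and NUSAP1) are among the 6. Groups of 3 wells were not tested for a well far from the others.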

How the results depend on the processing

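The count of 190 genes changed by BaP in FAT1 cells (52.6% higher) became 56 with DESeq2 (67.9% higher), 372 with a replicate block, 86 with all wells of 1-digit replicate numbers fitted together (64.0% higher) and 94 to 174 with single wells left out; library totals without TMM gave 240, of which 101 were higher and 139 lower (42.1% higher), and edgeR's quasi-likelihood test gave 212, sharing 173. The cause was not tested. The 6 genes differing between FAT1 and GFP cells became 1 with DESeq2, 1 with robust moderation, 44 with the replicate block, 0 (at 576 unadjusted) with all wells fitted by limma-voom and 3 to 17 with single wells left out (13 without the first FAT1 DMSO well, 17 without the third FAT1 BaP well, 3 without the second GFP DMSO well). The 3 genes differing from the mean of the 4 other populations became 0 with edgeR, 0 with DESeq2, 0 with robust moderation, 0 (at 565 unadjusted) with all wells, 5 without TMM, 13 with the block and 1 to 7 with single wells left out (7 without the second NRG1 BaP well, 6 without the third FAT1 DMSO well, 1 without the third FAT1 BaP well). The lower FAT1 transcript in FAT1 cells ranged from -2.81 to -1.79 with single wells left out, was -3.03 with the block, and had too few counts for the filter at a mean of 10. Same-numbered FAT1 DMSO and BaP wells share a plate column, and their deviations correlated weakly, at 0.088, 0.029 and 0.018. DMSO wells 1 and 3 correlated best with the BaP well of their own number. DMSO well 2 correlated best with BaP well 3 (0.047). Correlations this weak do not settle whether the wells should be paired.

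Of 3036 recomputed values 2598 stayed on the same side, 196 moved, 213 were weaker, 10 stronger and 19 reversed, each of the reversed an uncalled gene. These were AHR (-0.040 without TMM, -0.020 without a filter, -0.31 to 0.40 with single wells left out), ARNT (-0.025 in thinned counts, -0.038 to 0.23), ARNT2 (-0.46 to 0.33), CYP2S1 (-0.18 to 1.20), FAT1 (-1.49 to 0.52), NCOA2 (-1.65 to 0.20) and PTGES3 (-0.12 to 0.013), ranges being over single wells left out. Depth limits genes of few counts, such as AHRR and FAT1.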

Other observations

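Outside the fixed lists, 50 of the genes that rose and 67 of those that fell belonged to no list and to no ribosomal protein family. S100A6, a calcium-binding protein of epithelial cells, had 4899.8, 4710.4 and 5046 CPM in DMSO wells and 6801, 6881 and 7006 in BaP wells (log2 0.50, SE 0.03, limma-voom adjusted p = 3.21e-17), and it also rose in GFP cells (0.59). FXYD3, a regulator of the sodium pump, rose by 0.45 in FAT1 cells and by 0.69 in GFP cells. ALAS1, the rate-limiting enzyme of haem synthesis, chosen after its value was seen, had 52.6, 58.7 and 53.04 CPM in DMSO wells and 109, 94.9 and 105 in BaP wells (limma-voom adjusted p = 3.08e-06). HNRNPA2B1, an RNA-binding protein, fell by 0.36 in FAT1 cells and stood at -0.03 in GFP cells, with a tested difference of -0.34 (limma-voom adjusted p = 0.129). It also fell in NRG1 cells (-0.27, limma-voom adjusted p = 0.0128) and stood at -0.04 in NRF2 and -0.01 in PIK3CA cells.

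DDIT4, a stress-induced inhibitor of mTORC1, went from 23.2, 15.2 and 14.8 CPM to 32.2, 32.2 and 37.1 CPM under BaP (log2 0.94, SE 0.21, limma-voom adjusted p = 0.00669). SEL1L, a part of the ER quality control ligase, went from 33.03, 28.2 and 23.4 CPM to 12.3, 10.98 and 17.1 CPM (log2 -1.07, SE 0.24, limma-voom adjusted p = 0.00681). They were the 2 calls among 30 tested ATF4 and ER stress genes, against 1.71% of all tested genes called in either direction. The DDIT4 call was lost without the second DMSO well (limma-voom adjusted p = 0.0993), the SEL1L call without the second BaP well (0.0676), and both with DESeq2.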
